A study of Mus musculus with 9 samples.

Results

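The genes described here are those of chromosome copying and of the repair of crosslinked, broken or mismatched DNA in N2a (Neuro-2a), a line of mouse neuroblastoma cells. They were chosen by the pathway names that the deposited table gives each gene: a gene was taken if its entries held DNA replication, Fanconi anemia pathway, Homologous recombination or Mismatch repair and did not hold Cell cycle. The rule gave 101 of 21899 genes, of which 28 carried the DNA replication entry, 50 the Fanconi entry, 40 the Homologous recombination entry and 21 the Mismatch repair entry. Since pathways share genes, 74 members were in 1 of the 4 pathways, 19 in 2, 5 in 3, and the 3 subunits of replication protein A (Rpa1, Rpa2 and Rpa3) in all 4. The Cell cycle entry kept out 9 genes: Mcm2, Mcm3, Mcm4, Mcm5, Mcm6, Mcm7, Pcna, Atr and Atm.

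The study asked what the loss of Arf1, a small GTPase of membrane traffic, did to gene expression, with a view to lipid metabolism. RNA was sequenced from 9 libraries of untreated N2a cells: 3 expressed a hairpin against luciferase (shlucif, the control) and 6 were Arf1-deficient, 3 with the hairpin shArf1-1 and 3 with the hairpin shArf1-2. The line is labelled neuroblast, all groups carry a hairpin, and Arf1 is lowered and not deleted. Nothing in the labels says whether the libraries of a group came from separate cultures, so that the p-values measure only the spread between these libraries, which may be technical. Where all 6 Arf1-deficient libraries are compared with shlucif, both hairpins are taken as a single group. The spread in that pooled comparison therefore also holds any difference between the hairpins.

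DNA replication opens the double helix and copies it with DNA polymerases alpha, delta and epsilon, which work with a clamp loader and with proteins that coat single strands. Mismatch repair removes wrongly paired bases behind the fork, the Fanconi pathway unhooks strands that are crosslinked to each other, and homologous recombination mends breaks with the sister copy as a template. Translesion polymerases copy past damaged bases, and in dividing cells many of these genes are induced in S phase through E2F transcription factors.

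The libraries held between 11182479 and 15594615 counts, and a count is a read assigned to a gene. Levels are given in FPKM (a count scaled by the length of the gene and the total of the library), and differences as log2 fold changes fitted to the counts by edgeR. Arf1 itself was at 324 ± 6.72 FPKM (shlucif), 128 ± 1.73 FPKM (shArf1-1) and 165 ± 6.92 FPKM (shArf1-2; SD, n = 3 each), below shlucif in all 6 Arf1-deficient libraries. Markers of another cell type moved with the groups. The levels of 15 genes of macrophages and microglia summed to between 140 and 173 FPKM in the shlucif libraries. The sums were between 0.458 and 0.721 FPKM with shArf1-1 and between 0.537 and 0.642 FPKM with shArf1-2, and the 13 genes that could be tested were all lower in Arf1-deficient cells. The defining genes Spi1, Ctss, Itgam, Aif1, C1qa, C1qb and C1qc were at 0 in all 6 Arf1-deficient libraries. Of these, Aif1 (0.098 to 0.239 FPKM) and C1qa (0 to 0.07 FPKM) were close to 0 with shlucif too, so that their zeros say little. A list of 15 neuroblast and sympathetic neuron genes, mostly Tubb3 and Chgb, summed to between 849 and 883 FPKM with shlucif. The sums were between 1609 and 1742 FPKM with shArf1-1 and between 1482 and 1572 FPKM with shArf1-2. Not every gene of the list rose. Map2 was lower, at 4.49 to 5.32 FPKM with shlucif and 3.31 to 4.21 FPKM in the 6 Arf1-deficient libraries. Th, Hand2 and Nefl overlapped shlucif, and Nefm was at 0 in every library. Fibroblast genes, mostly Fbln1, summed to between 250 and 257 FPKM with shlucif. They summed to between 183 and 201 FPKM with shArf1-1 and between 156 and 172 FPKM with shArf1-2, with Col3a1 and Postn at 0. Astrocyte and oligodendrocyte genes summed to under 6 FPKM in every library. These lists move with every comparison against shlucif given below, and their part in the results was not tested. In bulk RNA, fewer cells of a type and less RNA per cell cannot be told apart.

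Most members were expressed at a low to moderate level. With shlucif, the 98 members with enough counts to be tested had a median of 5.64 FPKM, 28 of them were at 10 FPKM or more and 4 under 1 FPKM, and the highest was Pold2 at 101 FPKM. The 3 members that were not tested were Gm5136, with 0 counts in every library, Hes1, with 0 to 4 counts, and Sycp3, a protein of meiotic chromosomes, with 0 to 2 counts, so that a difference in them was not detectable at this depth. Together the members took between 0.4548% and 0.4709% of all counts in the shlucif libraries, between 0.5107% and 0.5257% with shArf1-1 and between 0.4803% and 0.4906% with shArf1-2. Every Arf1-deficient library was thus above every shlucif library in this share, and every shArf1-1 library above every shArf1-2 library. On the length-scaled FPKM the separation of shArf1-2 from shlucif was gone: the members summed to between 1023 and 1038 FPKM with shlucif, between 1105 and 1118 FPKM with shArf1-1 and between 1030 and 1041 FPKM with shArf1-2.

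Replication and repair genes did not move as a block in Arf1-deficient cells: in each of the 10 roles described below at least 1 gene rose and at least 1 fell. Of 98 members tested, 40 were higher (40.8%) and 24 lower (24.5%) in the 6 Arf1-deficient libraries than in the 3 shlucif libraries at an adjusted p under 0.05 by the quasi-likelihood test of edgeR, and 34 did not pass. The p-values were adjusted by the Benjamini-Hochberg method across the 12448 genes tested. Over all genes tested the shares were 31.6% higher and 32.9% lower. The median log2 fold change of the members was 0.10, beside 0.00 over all genes tested. Fold changes were modest, with 5 members at 1 or more in size: Rev1 and, on few counts, Eme2 upward, and Rad51b, Ube2t and, also on few counts, Poln downward. By pathway, 10 of 28 tested members of DNA replication were higher and 6 lower, 23 of 49 of the Fanconi pathway higher and 8 lower, 14 of 38 of homologous recombination higher and 12 lower, and 8 of 21 of mismatch repair higher and 7 lower. The largest rises and falls described below were picked among members whose Arf1-deficient and shlucif libraries did not overlap in scaled counts. For those genes the lack of overlap therefore adds no support.

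**Figure D1:**
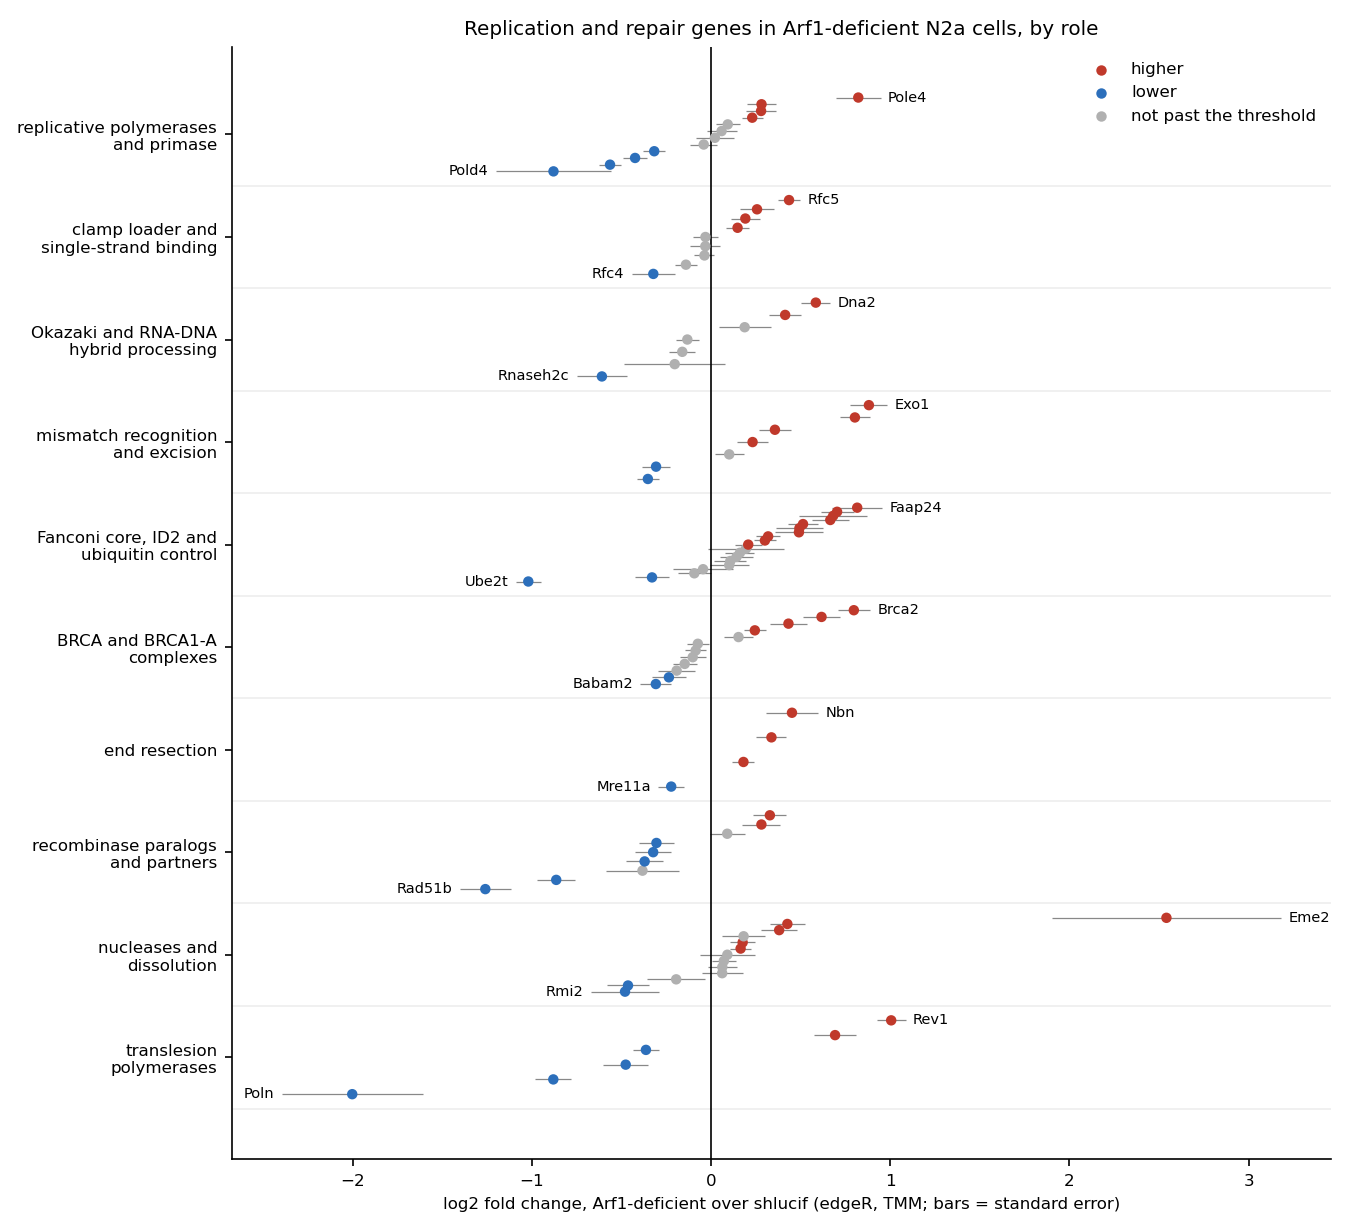
Log2 fold change of the 98 tested members in Arf1-deficient over shlucif cells (x axis), 1 point a gene, grouped by role (y axis), with bars for the standard error and colours for the edgeR call. In each of the 10 roles at least 1 gene was higher and at least 1 lower. The ends of the scale are Poln at -2.0 and Eme2 at 2.54, both on few counts.

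Promoter sequence gives a common feature of these genes that the pathway rule did not use. RefSeq windows on GRCm38.p6, from 250 bases before to 50 bases after a gene's start, were at hand for 79 of the 101 members. They were searched on both strands for E2F-type motifs, here the letters TTGGCGC or TTGGCGG, or else the letters TTCCCGC or TTCCCGG. The first 2 can share the letters CCAA with a CCAAT box that overlaps them. Such a motif was in at least 1 window of 42 of 79 members (53.2%), beside 26.3% of 9917 tested genes and 14.9% of all 27025 genes with a window. The share was 73.9% for DNA replication members (17 of 23), 76.5% for mismatch repair (13 of 17), 51.2% for the Fanconi pathway (21 of 41) and 46.9% for homologous recombination (15 of 32). A CCAAT box (CCAAT) was in the windows of 53.2% of members and 43.3% of tested genes, and a CHR-type motif (TTTGAA or TTTAAA) in 13.9% and 22.1%. A match describes letters and does not show binding.

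The 4 members below are those whose 250 bases before the start held an E2F-type motif and overlapped no annotated exon. They are shown because genes that rose and genes that fell carry the same kind of motif: Brca2, a central gene of recombination, and Pola1, the catalytic subunit of polymerase alpha, were higher in Arf1-deficient cells, while Msh6, which recognises mismatches, and Ube2t, the ubiquitin-conjugating enzyme of the Fanconi pathway, were lower. The E2F-type motifs are in capitals and the rest is in lower case, from 5′ to 3′ on the gene's strand of GRCm38.p6. Brca2 (chr5:150522371-150522620, plus strand), Pola1 (chrX:93632156-93632405, minus strand), Msh6 (chr17:87974800-87975049, plus strand) and Ube2t (chr1:134962315-134962564, plus strand) read as follows.
Brca2: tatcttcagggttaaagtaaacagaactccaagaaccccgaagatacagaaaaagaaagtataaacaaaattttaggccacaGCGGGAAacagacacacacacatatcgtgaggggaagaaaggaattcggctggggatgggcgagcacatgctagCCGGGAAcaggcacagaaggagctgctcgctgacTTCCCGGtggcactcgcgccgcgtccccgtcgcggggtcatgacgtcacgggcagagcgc
Pola1: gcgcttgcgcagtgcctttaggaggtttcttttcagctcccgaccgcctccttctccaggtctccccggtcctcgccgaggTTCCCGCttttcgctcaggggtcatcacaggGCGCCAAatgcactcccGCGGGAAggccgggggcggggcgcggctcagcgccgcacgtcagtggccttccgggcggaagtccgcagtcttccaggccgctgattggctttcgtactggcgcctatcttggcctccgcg
Msh6: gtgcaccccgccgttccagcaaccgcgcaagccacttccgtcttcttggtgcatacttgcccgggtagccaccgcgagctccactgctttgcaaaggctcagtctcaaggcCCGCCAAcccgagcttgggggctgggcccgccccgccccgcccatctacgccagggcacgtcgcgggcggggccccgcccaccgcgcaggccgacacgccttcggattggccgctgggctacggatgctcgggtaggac
Ube2t: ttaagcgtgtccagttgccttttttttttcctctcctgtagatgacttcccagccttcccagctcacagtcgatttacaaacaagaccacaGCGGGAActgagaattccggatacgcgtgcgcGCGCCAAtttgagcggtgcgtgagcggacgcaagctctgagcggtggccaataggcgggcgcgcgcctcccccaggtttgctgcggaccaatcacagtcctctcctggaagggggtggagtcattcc
Brca2 held 3 of these motifs before its start, Pola1 also 3, Ube2t 2 and Msh6 1. Among all members with a window, an E2F-type motif was found in 17 of 28 that were higher, 10 of 19 that were lower and 14 of 30 that did not pass the threshold.

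Among the replicative polymerases, all 4 subunits of DNA polymerase delta fell and 3 of the 4 subunits of polymerase epsilon rose. This split by complex was not tested, and the calls over the whole role, given below, were near the shares of all genes tested. Polymerase delta makes most of the lagging strand, and its subunits Pold2 and Pold3 also serve polymerase zeta. Pold2 (chromosome 11, 5872180 to 5878292 of GRCm38) was at 104, 97.8 and 101 FPKM with shlucif, 74, 80.6 and 64.9 FPKM with shArf1-1 and 67.4, 70.6 and 71.4 FPKM with shArf1-2. All 6 Arf1-deficient libraries were below the 3 shlucif libraries, and the log2 fold change was -0.56 (standard error 0.06, edgeR adjusted p = 2.40e-07). Pold1, the catalytic subunit, was at 59.9, 54.4 and 51.7 FPKM with shlucif, 47.5, 51.1 and 42 FPKM with shArf1-1 and 46.7, 46 and 45.1 FPKM with shArf1-2, and the groups again did not overlap. Its log2 fold change was -0.32 (standard error 0.06, edgeR adjusted p = 0.000176). Pold3 was at 12.6, 14.3 and 14.2 FPKM with shlucif, 10.3, 11.4 and 10.9 FPKM with shArf1-1 and 10.4, 10.2 and 10.7 FPKM with shArf1-2, with every Arf1-deficient library below every shlucif library and a log2 fold change of -0.42 (standard error 0.07, edgeR adjusted p = 1.99e-05). The small subunit Pold4 was low, at 1.66 ± 0.24 FPKM (shlucif), 0.998 ± 0.444 FPKM (shArf1-1) and 0.887 ± 0.354 FPKM (shArf1-2; SD, n = 3 each). Its groups overlapped, since 1 shArf1-1 library at 1.51 FPKM was above the lowest shlucif library at 1.41 FPKM. Its log2 fold change was -0.88 (standard error 0.32, edgeR adjusted p = 0.023), and 24.6% of its exon bases are shared with another annotated gene on the same strand.

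Polymerase epsilon, which makes most of the leading strand, showed the opposite direction in 3 of its 4 subunits. Pole4, a small histone-fold subunit, was at 11, 9.08 and 10.2 FPKM with shlucif, 22.4, 20.4 and 21.1 FPKM with shArf1-1 and 16.4, 15.7 and 16.1 FPKM with shArf1-2. The 3 groups were fully separated, with shArf1-1 highest, shArf1-2 between and shlucif lowest, and the log2 fold change of Arf1-deficient cells was 0.82 (standard error 0.13, edgeR adjusted p = 2.51e-05). Its partner Pole3 was at 20.8, 19.2 and 20.1 FPKM with shlucif, 26.6, 27.3 and 28.4 FPKM with shArf1-1 and 23.7, 23.5 and 23.1 FPKM with shArf1-2, again in that order without overlap, with a log2 fold change of 0.28 (standard error 0.08, edgeR adjusted p = 0.00622). The catalytic subunit Pole was at 10.7 ± 0.39 FPKM (shlucif), 13.5 ± 0.814 FPKM (shArf1-1) and 12.6 ± 0.564 FPKM (shArf1-2; SD, n = 3 each), and its log2 fold change was 0.23 (standard error 0.06, edgeR adjusted p = 0.00225). Pole2 was at 8.71 ± 0.583 FPKM (shlucif), 10.1 ± 1.14 FPKM (shArf1-1) and 8.37 ± 0.603 FPKM (shArf1-2; SD, n = 3 each), and its fitted log2 change of 0.02 (standard error 0.11, edgeR adjusted p = 0.871) did not pass the threshold. Pola1 was at 4.12, 4.73 and 4.24 FPKM with shlucif, 5.29, 5.94 and 6.38 FPKM with shArf1-1 and 5.04, 5.45 and 5.07 FPKM with shArf1-2, and its log2 fold change was 0.28 (standard error 0.09, edgeR adjusted p = 0.0079). With a correction for GC content its value of 0.157 no longer passed. The other polymerase alpha and primase genes, Pola2, Prim1 and Prim2, had log2 fold changes between -0.04 and 0.09 that did not pass. Across the 12 polymerase and primase genes, 4 were higher and 4 lower (33.3% each, beside 31.6% and 32.9% of all genes tested).

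**Figure D2:**
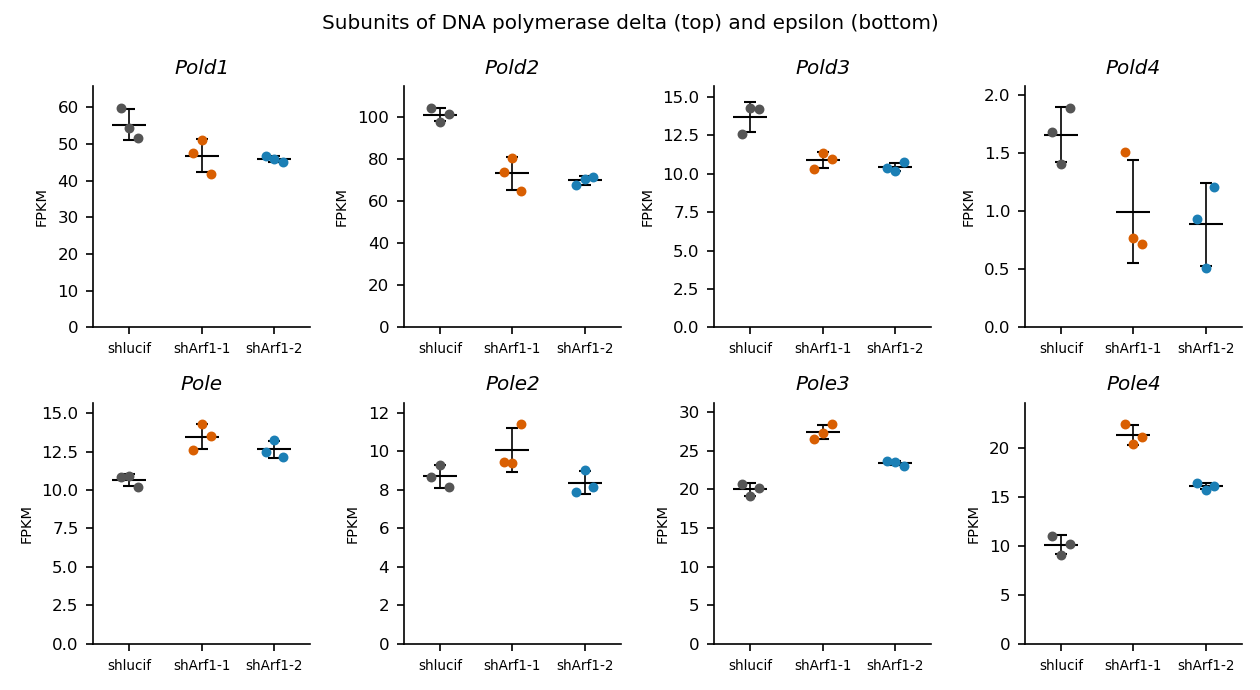
FPKM (y axis, from 0) of the 4 subunits of DNA polymerase delta (top) and the 4 of epsilon (bottom) in each library by hairpin group (x axis), with bars for the mean and its SD (n = 3). Pold1, Pold2 and Pold3 sit lower in both Arf1-deficient groups, Pole, Pole3 and Pole4 sit higher, and Pole2 overlaps.

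The clamp loader and the single-strand binding proteins moved less. Rfc5, a small subunit of the clamp loader, was at 14.6, 15.2 and 14.8 FPKM with shlucif, 22.4, 21.8 and 20.8 FPKM with shArf1-1 and 20.9, 19.5 and 20.9 FPKM with shArf1-2, above shlucif in all 6 Arf1-deficient libraries (log2 fold change 0.44, standard error 0.06, edgeR adjusted p = 5.10e-06). Rfc4, which sits beside it in the complex, was at 9.41, 8.24 and 10.8 FPKM with shlucif, 8.7, 8.4 and 7.95 FPKM with shArf1-1 and 8.41, 7.46 and 6.63 FPKM with shArf1-2. These groups overlapped, and its log2 fold change was -0.32 (standard error 0.12, edgeR adjusted p = 0.0252). The large subunit Rfc1 rose by 0.15 on the log2 scale and Rpa3 by 0.26, as did Ssbp1, the single-strand binding protein of mitochondria, by 0.19, while Rfc2, Rfc3, Rpa1 and Rpa2 had values between -0.14 and -0.03 that did not pass. Rpa1 passed under 7 of 12 other settings, between -0.16 and -0.14, and without shArf1-1 replicate 1 or 2. In all, 4 of these 9 genes were higher (44.4%, beside 31.6% of all genes tested) and 1 was lower (11.1%, beside 32.9%).

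On the lagging strand, Dna2, a nuclease and helicase that trims flaps and also resects breaks, was at 7.93, 8.45 and 7.5 FPKM with shlucif, 12.7, 12.4 and 14.5 FPKM with shArf1-1 and 11.3, 11.7 and 12.2 FPKM with shArf1-2. No Arf1-deficient library overlapped shlucif, and the log2 fold change was 0.58 (standard error 0.08, edgeR adjusted p = 3.39e-06). Rnaseh1, which digests RNA paired with DNA, averaged 7.34 ± 0.356 FPKM (shlucif), 10.6 ± 0.446 FPKM (shArf1-1) and 9.84 ± 0.777 FPKM (shArf1-2; SD, n = 3 each), and rose by 0.41 on the log2 scale (edgeR adjusted p = 0.000577). Rnaseh2c, a subunit of the other enzyme of this kind, was at 5.88, 5.84 and 5.43 FPKM with shlucif, 3.63, 4.75 and 4.26 FPKM with shArf1-1 and 3.74, 3.29 and 3.83 FPKM with shArf1-2, lower in all 6 libraries (log2 fold change -0.61, standard error 0.14, edgeR adjusted p = 0.00085). The opposite strand carries exons of Kat5 over 24.8% of the Rnaseh2c exon bases. Lig1, the ligase that seals Okazaki fragments and the most abundant gene of this role, was at 51.1 ± 1.48 FPKM (shlucif), 52 ± 1.07 FPKM (shArf1-1) and 45.3 ± 1.21 FPKM (shArf1-2; SD, n = 3 each), and did not pass in the pooled comparison (log2 fold change -0.13, standard error 0.06, edgeR adjusted p = 0.077), though it passed without shArf1-1 replicate 2 or 3. Fen1, the flap nuclease, was listed at only 0.859 ± 0.0802 FPKM (SD, n = 3) with shlucif. Of its exon bases, 84.2% are shared with an annotated gene on the opposite strand, so that its level is uncertain (log2 fold change -0.20, standard error 0.28, edgeR adjusted p = 0.542). The other RNase H2 subunits, Rnaseh2a and Rnaseh2b, had values of -0.16 and 0.19 that did not pass.

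In mismatch repair, the recognition gene Msh6 fell, and Msh3, Pms2 and Exo1 rose. Msh6, which recognises single mismatches and was the most abundant gene of the role, was at 29.8, 32.1 and 30.5 FPKM with shlucif, 28.5, 28.1 and 28.6 FPKM with shArf1-1 and 22.6, 23.1 and 25.2 FPKM with shArf1-2, without overlap between Arf1-deficient and control libraries and with the shArf1-2 libraries lowest. The log2 fold change was -0.31 (standard error 0.08, edgeR adjusted p = 0.00212). Msh3, which takes the place of MSH6 for longer loops, went the other way. It averaged 2.58 ± 0.164 FPKM (shlucif), 3.57 ± 0.154 FPKM (shArf1-1) and 3.31 ± 0.391 FPKM (shArf1-2; SD, n = 3 each), with a log2 fold change of 0.36 (standard error 0.09, edgeR adjusted p = 0.00173). Pms2, an endonuclease subunit, rose by 0.23 on the log2 scale (edgeR adjusted p = 0.0277), and Mlh3, which also serves in meiosis, had a value of 0.10 that did not pass. Exo1, the exonuclease that removes the faulty strand, was at 5.55, 6.26 and 4.77 FPKM with shlucif, 11.2, 11.7 and 12.2 FPKM with shArf1-1 and 9.44, 9.39 and 9.76 FPKM with shArf1-2. The 3 groups did not overlap, with shArf1-1 highest, and the log2 fold change was 0.88 (standard error 0.10, edgeR adjusted p = 1.29e-06).

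**Figure D3:**
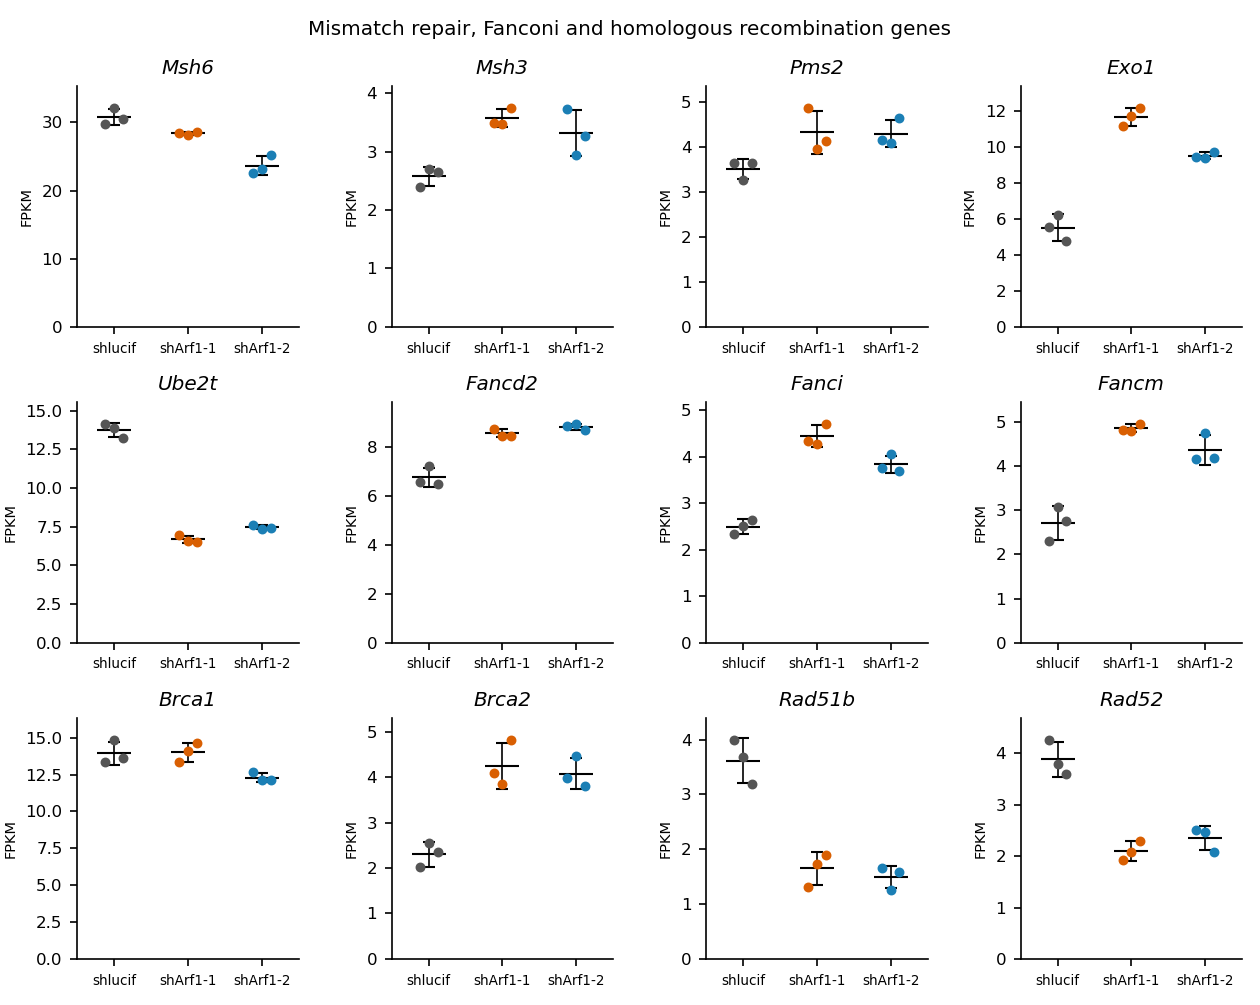
FPKM (y axis, from 0) in each library of 12 genes of mismatch repair, the Fanconi pathway and homologous recombination by hairpin group (x axis), with bars for the mean and its SD (n = 3). Msh6, Ube2t, Rad51b and Rad52 are lower in both Arf1-deficient groups, Msh3, Pms2, Exo1, Fancd2, Fanci, Fancm and Brca2 are higher, and Brca1 overlaps shlucif with shArf1-1.

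The Fanconi complexes leaned upward, except for the enzyme that brings in the ubiquitin. This pathway acts through a core complex that attaches ubiquitin to the FANCD2 and FANCI pair. Of 19 tested genes of the core, the pair and their control, 10 were higher (52.6%) and 2 lower (10.5%), with a median log2 fold change of 0.21. The shares of all genes tested were 31.6% and 32.9%. Ube2t was at 14.1, 13.9 and 13.2 FPKM with shlucif, 6.94, 6.6 and 6.52 FPKM with shArf1-1 and 7.6, 7.36 and 7.45 FPKM with shArf1-2. All Arf1-deficient libraries lay far under the lowest shlucif library, and the log2 fold change was -1.02 (standard error 0.07, edgeR adjusted p = 2.67e-10). Fance, a core subunit that contacts FANCD2, was the other gene that fell, and was at 12, 12 and 14 FPKM with shlucif, 9.66, 9.27 and 9.12 FPKM with shArf1-1 and 11.8, 11.5 and 11.8 FPKM with shArf1-2. All Arf1-deficient libraries were below shlucif, the shArf1-2 ones only just. Its log2 fold change was -0.33 (standard error 0.10, edgeR adjusted p = 0.00545), and the call was lost without shlucif replicate 3, where the value was -0.25.

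Among the Fanconi genes that rose, Faap24, which holds FANCM on DNA, was at 4.06, 3.5 and 3.02 FPKM with shlucif, 6.34, 5.87 and 7.24 FPKM with shArf1-1 and 7.46, 6.23 and 5.71 FPKM with shArf1-2 (log2 fold change 0.82, standard error 0.14, edgeR adjusted p = 3.97e-05). Fancm, the translocase that anchors the core complex, was at 2.31, 3.08 and 2.75 FPKM with shlucif, 4.81, 4.79 and 4.95 FPKM with shArf1-1 and 4.16, 4.75 and 4.17 FPKM with shArf1-2 (log2 fold change 0.70, standard error 0.09, edgeR adjusted p = 1.87e-06). In both genes every Arf1-deficient library was above every shlucif library. Fancf, an adaptor of the core, was at 2.32, 2.78 and 2.91 FPKM with shlucif, 5.39, 5.98 and 3.68 FPKM with shArf1-1 and 4.07, 4.3 and 3.55 FPKM with shArf1-2. Its libraries did not overlap shlucif but were spread more widely, and the log2 fold change was 0.68 (standard error 0.19, edgeR adjusted p = 0.0042). Fanci was at 2.34, 2.52 and 2.64 FPKM with shlucif, 4.34, 4.28 and 4.71 FPKM with shArf1-1 and 3.77, 4.05 and 3.71 FPKM with shArf1-2 (log2 fold change 0.67, standard error 0.10, edgeR adjusted p = 1.34e-05). Its partner Fancd2 was at 6.58, 7.22 and 6.49 FPKM with shlucif, 8.76, 8.46 and 8.47 FPKM with shArf1-1 and 8.85, 8.95 and 8.69 FPKM with shArf1-2 (log2 fold change 0.30, standard error 0.06, edgeR adjusted p = 0.000297). The difference between these partners was not tested. Exons on the opposite strand overlap 16% of the Fanci exon bases (Polg) and 15% of those of Fancf (Gas2). Usp1, which takes the ubiquitin off again, averaged 16.8 ± 2.0 FPKM (shlucif), 26.4 ± 2.13 FPKM (shArf1-1) and 23.5 ± 1.02 FPKM (shArf1-2; SD, n = 3 each). It rose by 0.51 on the log2 scale (edgeR adjusted p = 2.70e-05). Smaller rises were seen in Fancb, by 0.49, in Cenps, a histone-fold partner of FANCM, by 0.49, in Fanca by 0.32 and in Telo2, which stabilises the large checkpoint kinases, by 0.21. Cenpx, the most abundant gene of this role and the partner of Cenps, averaged 23.9 ± 1.97 FPKM (shlucif), 24.5 ± 1.63 FPKM (shArf1-1) and 22.3 ± 0.661 FPKM (shArf1-2; SD, n = 3 each) and did not pass (log2 fold change -0.09, standard error 0.09, edgeR adjusted p = 0.374). The other genes that did not pass, Fancc, Fancg, Fancl, Faap100, Atrip and Wdr48, had values between -0.04 and 0.19.

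Brca2 rose, Brca1 did not pass the threshold, and its partner Bard1 was lower on a call that a single library could end. Brca2 (chromosome 5, 150522630 to 150570329 of GRCm38) was at 2.02, 2.54 and 2.34 FPKM with shlucif, 4.1, 3.84 and 4.82 FPKM with shArf1-1 and 3.98, 4.46 and 3.81 FPKM with shArf1-2. The lowest Arf1-deficient library was above the highest shlucif library, and the log2 fold change was 0.80 (standard error 0.09, edgeR adjusted p = 2.88e-07). Brca1, a ubiquitin ligase that directs broken ends into recombination, was at 13.4, 14.8 and 13.6 FPKM with shlucif, 13.3, 14.1 and 14.6 FPKM with shArf1-1 and 12.6, 12.2 and 12.1 FPKM with shArf1-2, with groups that overlapped and a log2 fold change of -0.15 (standard error 0.07, edgeR adjusted p = 0.0648) that did not pass. The value did pass under 6 of 12 other settings, between -0.21 and -0.15, and without shArf1-1 replicate 2 or 3. For Bard1, its partner, the groups overlapped and the log2 fold change was -0.24 (standard error 0.09, edgeR adjusted p = 0.0362). This call was lost when any 1 of 5 libraries was left out (shlucif replicates 1 and 2 and the 3 shArf1-2 libraries, with values between -0.22 and -0.19), and also with scaling by library size alone and in limma. Abraxas1, the scaffold of the BRCA1-A complex, which restrains recombination at breaks, was at 4.55, 3.75 and 3.92 FPKM with shlucif, 6.45, 6.74 and 6.5 FPKM with shArf1-1 and 7.23, 6.36 and 5.91 FPKM with shArf1-2, above shlucif in all 6 libraries (log2 fold change 0.62, standard error 0.11, edgeR adjusted p = 4.54e-05). Its deubiquitinase Brcc3 rose by 0.43 on the log2 scale (edgeR adjusted p = 0.00103), whereas Babam2, another subunit, fell by 0.31 on the log2 scale (edgeR adjusted p = 0.0040). Babam1, the most abundant gene of the role at 49.4 ± 1.48 FPKM (SD, n = 3) with shlucif, and Uimc1, which binds ubiquitin chains, had values of -0.09 and -0.10 that did not pass. Topbp1, an activator of the ATR kinase, rose by 0.24. Palb2, which bridges BRCA1 and BRCA2, was at -0.19 on the log2 scale, Sem1, a small protein bound to BRCA2, at -0.07 and the helicase gene Brip1 at 0.15, and none of them passed. Of the 12 genes 4 were higher (33.3%, beside 31.6% of all genes tested) and 2 lower (16.7%, beside 32.9%).

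Of the 4 genes of end resection, which bares single strands at a break, Nbn rose by 0.45, Rbbp8, also known as CtIP, by 0.34 and Rad50 by 0.18 on the log2 scale. Mre11a, the nuclease that forms a complex with NBN and RAD50, fell by 0.22 on the log2 scale (edgeR adjusted p = 0.0113). Rad50, the most abundant of them, was at 15, 15.7 and 14.6 FPKM with shlucif, 18.3, 17.1 and 19.2 FPKM with shArf1-1 and 18.1, 18.2 and 16.4 FPKM with shArf1-2. The groups did not overlap, and its log2 fold change was 0.18 (standard error 0.06, edgeR adjusted p = 0.0148). The call on Rad50 was lost without shlucif replicate 3 and with a correction for GC content.

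Most of the recombinase paralogs and partners described here were lower, while Rad51c rose. Rad51b, which works in a complex with RAD51C, RAD51D and XRCC2, was at 4.0, 3.68 and 3.18 FPKM with shlucif, 1.32, 1.74 and 1.9 FPKM with shArf1-1 and 1.65, 1.26 and 1.58 FPKM with shArf1-2. No library overlapped, and the log2 fold change of -1.26 (standard error 0.14, edgeR adjusted p = 3.08e-07) was the largest fall of this role. Rad52, which anneals single strands, was at 4.26, 3.79 and 3.6 FPKM with shlucif, 1.92, 2.08 and 2.3 FPKM with shArf1-1 and 2.51, 2.47 and 2.08 FPKM with shArf1-2 (log2 fold change -0.86, standard error 0.11, edgeR adjusted p = 7.37e-07), again without overlap. Smaller falls were found in the motor proteins Rad54b and Rad54l and in Rad51d. Rad54b was at 4.09, 4.17 and 4.16 FPKM with shlucif, 3.03, 3.36 and 3.75 FPKM with shArf1-1 and 3.27, 3.96 and 2.71 FPKM with shArf1-2 (log2 fold change -0.37, standard error 0.11, edgeR adjusted p = 0.0046). The log2 fold change of Rad54l was -0.32 (standard error 0.10, edgeR adjusted p = 0.00839) and that of Rad51d -0.30 (standard error 0.10, edgeR adjusted p = 0.0105). Rad54b shares 35.9% of its exon bases with Fsbp on the same strand. Rad51c was the paralog that rose, by 0.28 on the log2 scale (edgeR adjusted p = 0.0262), and Xrcc2 and Xrcc3 did not pass, with values of 0.09 and -0.38.

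Among the nucleases and the enzymes that take joined strands apart, 5 of 13 genes were higher (38.5%) and 2 lower (15.4%). The shares of all genes tested were 31.6% and 32.9%. Eme1, the partner of the MUS81 nuclease, averaged 5.21 ± 0.31 FPKM (shlucif), 7.49 ± 0.787 FPKM (shArf1-1) and 7.13 ± 0.157 FPKM (shArf1-2; SD, n = 3 each). Its log2 fold change was 0.43 (standard error 0.10, edgeR adjusted p = 0.000938). Eme2, the alternative partner, passed the test on very few reads, 1 to 4 counts in the shlucif libraries and 4 to 19 in the Arf1-deficient ones. Of its exon bases, 54.2% lie under exons of Spsb3 on the opposite strand, so that the size of its fitted fold is uncertain. Ercc4, which cuts beside a crosslink together with ERCC1, rose by 0.38 on the log2 scale (edgeR adjusted p = 0.00237), and Ercc1 had a value of 0.06 that did not pass. Blm, a helicase, and Top3a, a topoisomerase that dissolves crossed strands with it, rose by 0.16 and 0.18, while Rmi2 of the same complex fell by 0.48 on the log2 scale from 1.21 ± 0.126 FPKM (SD, n = 3) with shlucif. The call on Top3a was lost without shlucif replicate 1, shlucif replicate 3 or shArf1-1 replicate 2. Slx1b, a nuclease subunit that acts on the SLX4 scaffold, was at 3.91, 3.99 and 4.67 FPKM with shlucif, 3.29, 2.85 and 3.13 FPKM with shArf1-1 and 3.45, 3.67 and 2.65 FPKM with shArf1-2. The groups did not overlap (log2 fold change -0.46, standard error 0.12, edgeR adjusted p = 0.00222), and 16.4% of its exon bases lie under Bola2 on the opposite strand. Slx4 itself, Top3b, Fan1 and Rmi1 had values between 0.06 and 0.18 that did not pass.

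Of the 6 translesion polymerases every one passed the threshold, 2 upward (33.3%, beside 31.6% of all genes tested) and 4 downward (66.7%, beside 32.9%). Rev1, the scaffold for the others (chromosome 1, 38052786 to 38129801 of GRCm38), was at 4.42, 5.33 and 5.01 FPKM with shlucif, 9.97, 10.1 and 11.4 FPKM with shArf1-1 and 10.2, 9.48 and 10.6 FPKM with shArf1-2. Every Arf1-deficient library was above every shlucif library, and the log2 fold change was 1.01 (standard error 0.08, edgeR adjusted p = 2.40e-09). Exons of Eif5b on the opposite strand overlap 26.6% of the Rev1 exon bases. Rev3l, the catalytic subunit of polymerase zeta, was at 5.93, 8.22 and 6.9 FPKM with shlucif, 11.3, 12.7 and 13.9 FPKM with shArf1-1 and 9.85, 12.6 and 10.7 FPKM with shArf1-2 (log2 fold change 0.69, standard error 0.12, edgeR adjusted p = 0.000183), without overlap between the groups. Polk, Poli and Polh, Y-family polymerases that insert bases across a lesion, fell. Polk was at 5.29, 5.58 and 6.06 FPKM with shlucif, 3.12, 2.58 and 2.93 FPKM with shArf1-1 and 3.42, 3.71 and 3.43 FPKM with shArf1-2, with every Arf1-deficient library under every shlucif library (log2 fold change -0.88, standard error 0.10, edgeR adjusted p = 2.91e-07). Poli was at 3.86, 5.2 and 4.45 FPKM with shlucif, 2.91, 3.01 and 3.04 FPKM with shArf1-1 and 3.23, 4.12 and 3.96 FPKM with shArf1-2. Here the shArf1-2 libraries overlapped shlucif and the shArf1-1 libraries did not (log2 fold change -0.48, standard error 0.13, edgeR adjusted p = 0.0026). In counts per library size scaled by TMM, all Arf1-deficient libraries were below shlucif. Polh, the polymerase that copies past ultraviolet damage and the most abundant of the role, was at 8.56, 8.79 and 8.69 FPKM with shlucif, 7.33, 6.45 and 7.02 FPKM with shArf1-1 and 7.9, 6.98 and 6.58 FPKM with shArf1-2 (log2 fold change -0.36, standard error 0.07, edgeR adjusted p = 0.000254). Poln was at 21 to 24 counts in the shlucif libraries and 2 to 9 counts in the Arf1-deficient ones, without overlap, and its log2 fold change was -2.0 (standard error 0.39, edgeR adjusted p = 0.000191). Under other settings with all libraries this value ranged from -2.07 to -0.28, so that its size is uncertain.

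Both hairpins were then compared with the same 3 shlucif libraries, so that their values are not independent of each other. With shArf1-1, 42 members were higher (42.9%, beside 33.1% of all genes tested) and 20 lower (20.4%, beside 34.4%). With shArf1-2, 33 were higher (33.7%, beside 30.9%) and 31 lower (31.6%, beside 32.6%). Scaling by library size alone turned the latter split into 43 higher and 24 lower, and limma on log2(FPKM + 1) gave 42 and 24. All genes tested shifted upward under these settings too, to 36.5% higher and 28.1% lower with library size alone and to 35.9% and 28.2% in limma. The split of 3 pathways turned between the hairpins. With shArf1-1, 11 of 28 DNA replication members were higher and 4 lower, and with shArf1-2 5 were higher and 10 lower. In homologous recombination 14 of 38 were higher and 10 lower with shArf1-1, against 9 and 17 with shArf1-2. In mismatch repair 8 of 21 were higher and 5 lower, against 5 and 10. The pathways share members, such as Pold2, Pold4, Rpa1, Rpa2 and Rpa3 in DNA replication and mismatch repair, so that these splits are not separate results. The Fanconi pathway kept more higher than lower calls with both, 24 and 9 of 49 with shArf1-1 and 21 and 11 with shArf1-2. A call in the same direction with both hairpins was made for 32 members that rose and 18 that fell, 12 passed with shArf1-1 alone, 14 with shArf1-2 alone, 22 with neither, and 0 passed in opposite directions. As shares of the 98 members these are 32.7%, 18.4%, 12.2%, 14.3%, 22.4% and 0%, beside 27.3%, 29.0%, 11.0%, 6.88%, 25.6% and 0.217% of all genes tested.

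**Figure D4:**
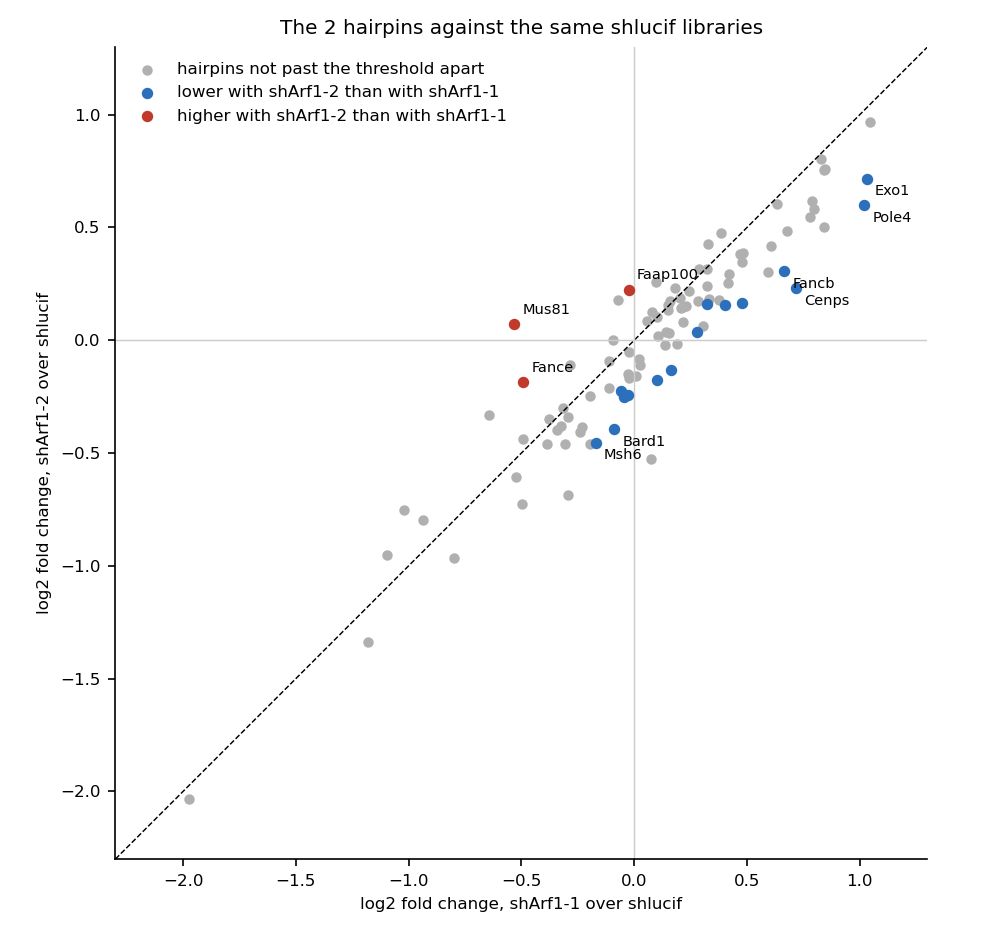
Log2 fold change of 97 members with shArf1-1 (x axis) and with shArf1-2 (y axis), each over the same shlucif libraries. Points under the dashed line of equal change are lower with shArf1-2, colours mark the 18 members whose hairpin difference passed the threshold, and Eme2, at 2.93 and 2.04, lies outside the axes.

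The direct comparison of the hairpins used no shlucif library as a reference and leaned towards lower values with shArf1-2. Of 98 members, 15 were lower with shArf1-2 than with shArf1-1 (15.3%, beside 7.46% of all genes tested) and 3 were higher (3.06%, beside 6.98%), and the median log2 difference was -0.10, beside 0.00 over all genes tested. All 28 members of DNA replication had a fitted difference below 0, with a median of -0.16 and a range from -0.60 to -0.03, and 6 of them passed the threshold. The difference lay below 0 for all of the DNA replication members tested under every other scaling, filter, tool and correction tried, and for 26 to 28 of them with 1 library left out. Below 0 were 20 of 21 mismatch repair members, 29 of 38 of homologous recombination and 30 of 49 of the Fanconi pathway. The share of all genes tested was 49.3%. These pathways share members with DNA replication, so that their counts are not separate from it. The count of 15 fell to 9 without shArf1-2 replicate 1 and to 8 without shArf1-2 replicate 3. Calls over all genes tested, 869 higher and 929 lower, fell as well. They came to 1194 in both directions together (597 higher) without replicate 1 and to 1296 (643 higher) without replicate 3. Macrophage and microglia markers summed to under 1 FPKM in all 6 of these libraries.

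Of the 15 members that were lower, Cenps had the largest difference, -0.49 (standard error 0.10, edgeR adjusted p = 0.000579), and was at 9.04, 8.42 and 8.38 FPKM with shlucif, 14.8, 15.5 and 13.8 FPKM with shArf1-1 and 10.5, 10.4 and 10.9 FPKM with shArf1-2. Its 3 groups did not overlap, with shArf1-2 between shlucif and shArf1-1. Pole4 and Exo1, whose values in each library are given above, had the same order of groups. Their hairpin differences were -0.42 (standard error 0.08, edgeR adjusted p = 0.000391) and -0.31 (standard error 0.07, edgeR adjusted p = 0.00217). Other genes did not pass against shlucif with shArf1-1 but fell with shArf1-2: Lig1 was at 51, 52.6 and 49.6 FPKM with shlucif, 51, 53.1 and 51.9 FPKM with shArf1-1 and 45.9, 43.9 and 46.1 FPKM with shArf1-2 (hairpin difference -0.22, standard error 0.05, edgeR adjusted p = 0.00351). Rpa1 was at 34.6, 32.9 and 32 FPKM with shlucif, 33.5, 33.5 and 32 FPKM with shArf1-1 and 29.3, 28.6 and 31.5 FPKM with shArf1-2 (hairpin difference -0.17, standard error 0.06, edgeR adjusted p = 0.042). Brca1 was of this kind too, with a hairpin difference of -0.21 (standard error 0.06, edgeR adjusted p = 0.0163), and so was Bard1, with -0.30 (standard error 0.08, edgeR adjusted p = 0.0121). Rpa2 was at 27.7, 25.4 and 27 FPKM with shlucif, 28.3, 31.2 and 29.6 FPKM with shArf1-1 and 25.2, 23.4 and 25.9 FPKM with shArf1-2, lower with shArf1-2 than with shArf1-1 by 0.27 on the log2 scale (edgeR adjusted p = 0.00454), and its pooled value of -0.03 did not pass. For Msh6 the hairpin difference was -0.28 (standard error 0.06, edgeR adjusted p = 0.000945), for Fancb -0.36 (standard error 0.12, edgeR adjusted p = 0.0365), and for Pole2 -0.29 (standard error 0.10, edgeR adjusted p = 0.0375). The values were -0.25 (standard error 0.07, edgeR adjusted p = 0.0194) for Pole3, -0.24 (standard error 0.07, edgeR adjusted p = 0.0199) for Wdr48, the cofactor of USP1, and -0.16 (standard error 0.05, edgeR adjusted p = 0.041) for Topbp1.

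The other direction was rare. Mus81, a nuclease that cuts stalled forks and joined strands, was at 7.91, 7.14 and 6.6 FPKM with shlucif, 5.26, 5.51 and 4.82 FPKM with shArf1-1 and 7.59, 8.33 and 8.0 FPKM with shArf1-2. Its shArf1-1 libraries were all below shlucif, its shArf1-2 libraries overlapped shlucif, and the hairpin difference was 0.60 (standard error 0.10, edgeR adjusted p = 5.21e-05). The pooled log2 fold change of -0.19 (standard error 0.16, edgeR adjusted p = 0.31) did not pass. Fance and Faap100, both of the Fanconi core, were also higher with shArf1-2, by 0.31 (standard error 0.09, edgeR adjusted p = 0.0129) and 0.25 (standard error 0.08, edgeR adjusted p = 0.0262).

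The genes that were lower with shArf1-2 shared the promoter letters described above. Of the 15, 13 had a promoter window, and all 13 genes held an E2F-type motif in at least 1 window. In Brca1, Cenps and Lig1 the motifs lay only after the start. Such a motif was found for 42 of 79 members and 26.3% of tested genes. It was found for 243 of all 742 tested genes that were lower with shArf1-2 (32.7%) and 176 of 684 that were higher (25.7%). These shares describe a small group of genes and carry no test.

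**Figure D5:**
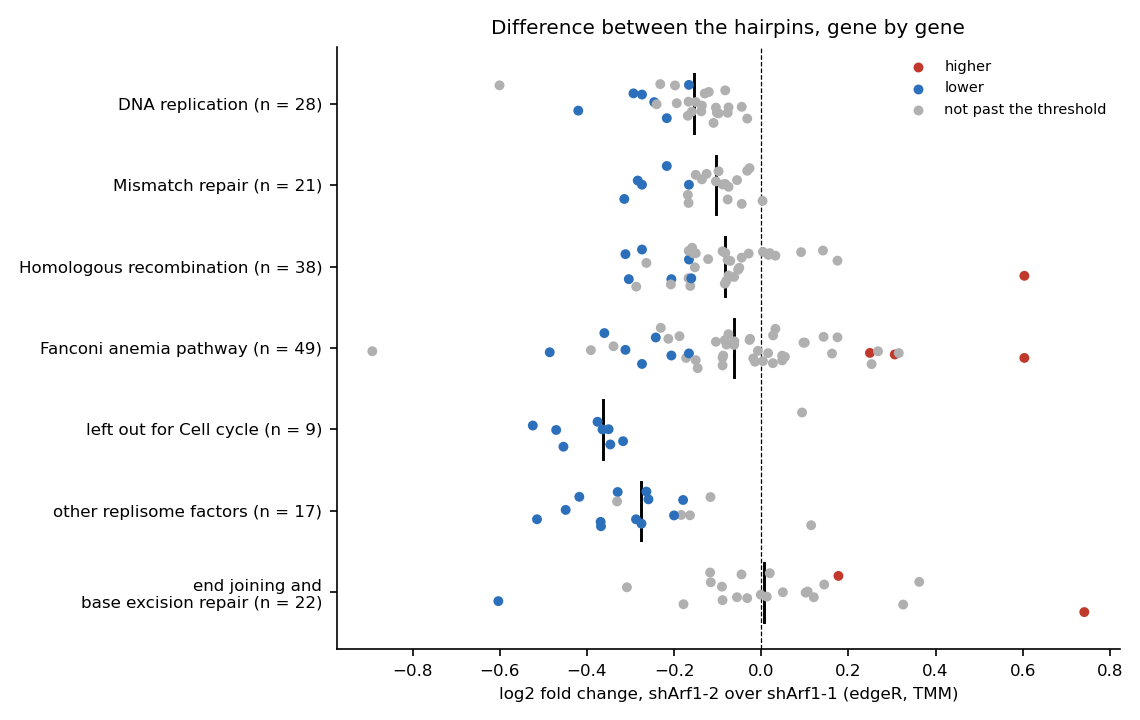
Log2 fold change with shArf1-2 over shArf1-1 (x axis), 1 point a gene and a black bar for the median, for the members of each of the 4 pathways and for 3 lists of other genes (y axis). The medians lie at -0.16 for DNA replication, -0.36 for the 9 genes left out for their Cell cycle entry, -0.28 for 17 other replisome factors and 0.01 for 22 genes of end joining and base excision repair.

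Genes that the rule left out showed the same lean between the hairpins. Of the 9 genes with a Cell cycle entry, 8 were lower with shArf1-2 (88.9%, beside 7.46% of all genes tested) and 0 higher, the exception being the kinase gene Atr. The MCM helicase gene Mcm5 was at 60.4 ± 3.72 FPKM (shlucif), 72.6 ± 3.94 FPKM (shArf1-1) and 53 ± 2.79 FPKM (shArf1-2; SD, n = 3 each) (hairpin difference -0.47, standard error 0.06, edgeR adjusted p = 5.25e-07). The sliding clamp Pcna was at 116 ± 4.12 FPKM (shlucif), 128 ± 7.47 FPKM (shArf1-1) and 101 ± 2.87 FPKM (shArf1-2; SD, n = 3 each) (hairpin difference -0.35, standard error 0.05, edgeR adjusted p = 1.55e-05). Against shlucif, 1 of the 9, Mcm7, was higher (11.1%) and 0 were lower in the pooled comparison, beside 31.6% and 32.9% of all genes tested. With shArf1-1 alone, 3 were higher and 0 lower, while with shArf1-2 Mcm7 was higher and 6 were lower, which were Mcm2 to Mcm6 and Pcna. Of 17 replisome and origin factors outside the 4 pathways, 12 were lower with shArf1-2 than with shArf1-1 (70.6%) and 0 higher. Against shlucif 3 were higher and 3 lower (17.6% each, under the shares of all genes tested). They were led by Timeless, a fork protection gene, at 0.50 and Gins2, a subunit of the GINS complex of the replicative helicase, at -0.53. Another list of repair genes had no such lean: of 22 genes of end joining and base excision repair, 1 was lower (4.55%) and 2 were higher (9.09%) with shArf1-2, beside 7.46% and 6.98% of all genes tested. Against shlucif 6 were higher (27.3%) and 5 lower (22.7%), beside 31.6% and 32.9%. Apex1, the abasic site nuclease, at 0.76 and the DNA glycosylase Nthl1 at -1.0 were at the ends. A list of 20 proliferation markers had 12 higher and 2 lower against shlucif, with a median log2 fold change of 0.22 and the mitotic kinesin Kif11 (0.77) and the methylation maintenance gene Uhrf1 (-0.28) at the ends, and 6 lower and 0 higher with shArf1-2 than with shArf1-1. Arf1 itself had a hairpin difference of 0.34 (standard error 0.05, edgeR adjusted p = 1.16e-05). The part of the Arf1 level and of the proliferation markers in the hairpin difference was not tested.

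Gene length and base composition differed a little with the direction of change. The members that rose had a median listed length of 6011 bases and a median GC content of 46.4%, those that fell 4691 bases and 48.1%, and those that did not pass 5214 bases and 49.7%. Across the 98 genes, which are not independent replicates, Spearman's rho of the log2 fold change was 0.23 with length and -0.22 with GC content, beside 0.06 and -0.13 over all genes tested. Whether counting used strand is not given, so that it is not known if reads of genes overlapping on opposite strands were kept apart. Exons of another gene overlap more than 10% of the exon bases in 21 members and more than 25% in 5: Fen1, Eme2, Sycp3, Rad54b and Rev1.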

How the data were processed

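RNA-seq of 9 N2a libraries was used, 3 each with shlucif, shArf1-1 and shArf1-2 as the labels give them. The authors deposited 1 table with a raw read count per gene and library and an FPKM value made from it: deposited FPKM equalled the count divided by gene length and library total for 100.0% of values within 0.1%. The table's columns named shArf2 were taken as shArf1-2, since no label names an Arf2 hairpin. The submitters' processing notes name the build mm10, and the aligner, the counting program and the use of strand are not given in the sources used here. Columns of the authors' own comparisons (fold changes and p-values) were not used.

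Counts were fitted with edgeR 4.0.16 (R 4.3.3; TMM factors, filterByExpr, robust quasi-likelihood test) as 6 Arf1-deficient against 3 shlucif libraries, and as 3 groups for each hairpin and their difference. The threshold was an adjusted p of 0.05 (Benjamini-Hochberg, two-sided) across the 12448 genes tested. The script was tested on simulated counts. Alternatives used limma 3.58.1 on log2(FPKM + 1) and log2(FPKM + 0.1), DESeq2 1.42.0, other scalings and filters, a replicate block, a minimum log2 fold change of 1, and leaving out each library, with corrections for gene length and GC content added after seeing the data.

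The members, role lists and outside lists were chosen with earlier results of these data known. Named members were the 12 largest rises and 12 largest falls without overlap between Arf1-deficient and shlucif libraries in TMM-scaled CPM and with a mean of at least 1 CPM in the higher group, every member with a hairpin difference past the threshold, the most abundant gene of each role, and genes set by name, of which some results are not reported here. Because lack of overlap was part of the rule for the largest rises and falls, it adds no support to them. Those described beyond the rule were chosen after their values were seen. Positions came from GENCODE M21 on GRCm38 by gene identifier and promoters from RefSeq (GRCm38.p6). The counts limit the precision of low genes, and intervals between replicates hold only for these libraries.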

Additional observations from a re-analysis of the deposited data

Results flagged for a closer look

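The response to the hairpins differed in the members below, by edgeR's test of shArf1-2 against shArf1-1. Lower with shArf1-2, as log2 differences, were Cenps (-0.49), Pole4 (-0.42), Fancb (-0.36), Exo1 (-0.31), Bard1 (-0.30), Pole2 (-0.29), Msh6 (-0.28), Rpa2 (-0.27), Pole3 (-0.25), Wdr48 (-0.24), Lig1 (-0.22), Brca1 (-0.21), Rpa1 (-0.17) and Topbp1 (-0.16). Higher with shArf1-2 were Faap100 (0.25), Fance (0.31) and Mus81 (0.60). In each of these genes the 3 shArf1-2 libraries did not overlap the 3 shArf1-1 libraries in FPKM. The genes were chosen by this same difference in the same libraries, so that the lack of overlap adds no support. The hairpin that left more Arf1 RNA, shArf1-2, had the lower values of the former group, and the part of Arf1 level in the difference was not tested.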

How the results depend on the processing

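Under other scalings, filters, tools and corrections, between 33 and 43 members were higher and between 20 and 29 lower in Arf1-deficient cells, and with 1 library left out between 33 and 39 and between 19 and 27. The median log2 fold change of 0.10 became 0.16 with library size only, 0.13 with limma on log2(FPKM + 1), 0.16 with limma on log2(FPKM + 0.1) and 0.049 with GC content corrected, and lay between 0.08 and 0.13 with 1 library left out. The median of all genes tested, 0.00, moved up with the first 3 settings, to 0.07, 0.05 and 0.06, and was -0.01 with GC content corrected, where the cause of the lower members' median was not tested. A minimum log2 fold change of 1 left 2 higher and 3 lower, 4 and 4 with shArf1-1, 1 and 2 with shArf1-2, and 0 and 0 between the hairpins, by its own construction. With 1 library left out, between 38 and 42 were higher and between 19 and 21 lower with shArf1-1. With shArf1-2 these ranges were between 25 and 36 and between 26 and 31. Between 8 and 20 were lower with shArf1-2 than with shArf1-1 (9 without shArf1-2 replicate 1, 8 without shArf1-2 replicate 3). Calls over all genes tested fell in these last settings too. Pole2 turned to -0.0555 with GC content corrected and to -0.0228 and -0.0525 without shlucif replicate 3 and shArf1-1 replicate 3, with values from -0.0525 to 0.0633 over the libraries left out. Rpa2 turned to 0.0302 with library size only, 0.0246 with limma on log2(FPKM + 1), 0.0253 with limma on log2(FPKM + 0.1) and 0.0184 with GC content corrected. With a library left out Rpa2 lay from -0.0808 to 0.0118, above 0 without shlucif replicate 1 or shArf1-2 replicate 2. Neither gene had passed the threshold. Equal replicate numbers did not mark libraries that deviated together (mean correlation 0.007 over 9 pairs, from -0.082 to 0.094). With the replicate number as a block, 38 members were higher and 24 lower (median 0.10), 42 and 20 with shArf1-1, 34 and 31 with shArf1-2, and 3 and 16 between the hairpins, and of the named genes Bard1 lost its call. Over the 12 settings with all libraries and no minimum fold change, 567 of 599 values of 50 named genes kept their direction and side of the threshold. Another 21 values passed where the reported one did not, of Brca1 (6), Rpa1 (7), Wdr48 (4, between 0.16 and 0.22), Lig1 (2), Mus81 (1, at -0.23) and Faap100 (1, at 0.18). Genes with few counts, such as Eme2, Poln and Fen1, are limited by depth.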
